A study of Mus musculus with 23 samples.

Results

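Tumors grown from Pan02 cells were compared directly with tumors grown from MC38 cells. The comparison took the 3 Pan02 and the 3 MC38 tumors from the 15 tumor libraries, 6 of the 23 RNA libraries of the series. Tumors were assigned to a model by the cell line in their labels. The pair of models was chosen because both had high lymphoid gene levels in earlier results of these data. The choice thus rested on measured values of these tumors, and similar T cell levels in the pair are no separate result. Pan02 is a line from a pancreatic ductal carcinoma and MC38 a line from a colon carcinoma, and each model is 1 line. All 6 tumors grew in adult female C57BL/6 mice (substrain C57BL/6JBomTac) after 500000 cultured cells had been injected under the skin of the flank, and the labels name no other treatment. Tumors were taken at the endpoint, ulcerated ones were left out, and RNA with a poly(A) tail was sequenced from a fragment of each tumor. The Pan02 libraries are titled Pan01 and carry the cell line label Pan02.

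A tumor fragment holds cancer cells, fibroblasts, vessels and leukocytes together. Cancer-associated fibroblasts (CAFs) deposit collagens and glycoproteins, epithelial cancer cells are joined by cadherins and claudins and filled with keratins, and leukocytes respond to type I interferon, which switches on antiviral genes, and to interferon-γ, which T cells and NK cells release and which raises antigen presentation, chemokines and *Ido1*. Pancreatic ductal carcinoma is known for dense collagen, and MC38 is widely used as a T cell-infiltrated model. In bulk RNA, fewer cells of a type and less RNA per cell cannot be told apart.

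Between 13386319.5 and 21947941 counts per tumor fell on the genes used. Levels are CPM, counts scaled to a common library size by TMM, and the 3 values of a model are given in the order of tumors 1, 2 and 3. Of 15034 genes tested with edgeR, 4467 (29.7%) were called, meaning an adjusted p under 0.05 and a difference of at least 1 on the log2 scale. Calls were split into 2584 genes higher in Pan02 tumors (17.2%) and 1883 higher in MC38 tumors (12.5%), and 57.8% of the calls were thus higher in Pan02, against 44.2% under total-count scaling. That scaling lowered the median log2 difference of all tested genes from 0.07 to -0.15. Without the requirement on size, 7498 genes (49.9%) passed. All log2 differences are Pan02 minus MC38, ± is the standard error, and adjusted p is from edgeR. The labels do not say whether the tumors of a model came from separate mice, and p-values measure the spread between these fragments.

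The models were far apart relative to their replicates. Distances on log2 CPM ran from 43.9 to 91.8 between tumors of the same model and from 142 to 167 between models, and the first principal component held 78.1% of the variance. Pan02 tumor 1 stood apart with low leukocyte genes and high contractile genes, and MC38 tumor 2 with low RNA of fibrillar collagens. Values without these tumors are given where they matter. Skeletal muscle RNA varied widely. Its 12 genes summed to 1108, 293 and 60.1 CPM in Pan02 tumors and to 1463, 515 and 4374 CPM in MC38 tumors, and 0 of 12 were called, against 29.7% of all tested genes, or 5 higher in MC38 without Pan02 tumor 1. Erythroid genes summed to 13.7, 53.5 and 42.4 CPM in Pan02 and 265, 65.5 and 332 CPM in MC38 tumors, with 5 of 5 tested genes higher in MC38, a count that fell to 1 without Pan02 tumor 3, MC38 tumor 1 or MC38 tumor 3. The part of muscle or blood in the differences below was not tested.

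Each line was checked against genes of its tissue of origin. *Pdx1*, a regulator of pancreas identity, measured 57.7, 46.3 and 26.8 CPM in Pan02 tumors and 0.146, 0.150 and 0.0680 CPM in MC38 tumors (log2 fold change 8.36 ± 0.46, adjusted p = 0.00011). Its values did not overlap between the models. The intestinal master regulator *Cdx2* was almost absent from MC38, at 0.0487, 0.300 and 0 CPM, and was present in Pan02 at 21.3, 15.2 and 11.6 CPM (6.93 ± 0.74, adjusted p = 0.00063). The intestinal stem cell receptor *Lgr5* likewise measured 0.633, 0.150 and 0.204 CPM in MC38 and 58.4, 60.6 and 25.4 CPM in Pan02 (7.12 ± 0.61, adjusted p = 0.00035). Both defining intestinal markers were thus at or near 0 in MC38 tumors. Of 11 tested intestinal genes, 6 were higher in Pan02 (54.5%, against 17.2% of all tested genes) and 2 in MC38 (18.2%, against 12.5%), the latter 1 without MC38 tumor 1 or 2.

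**Figure D1:**
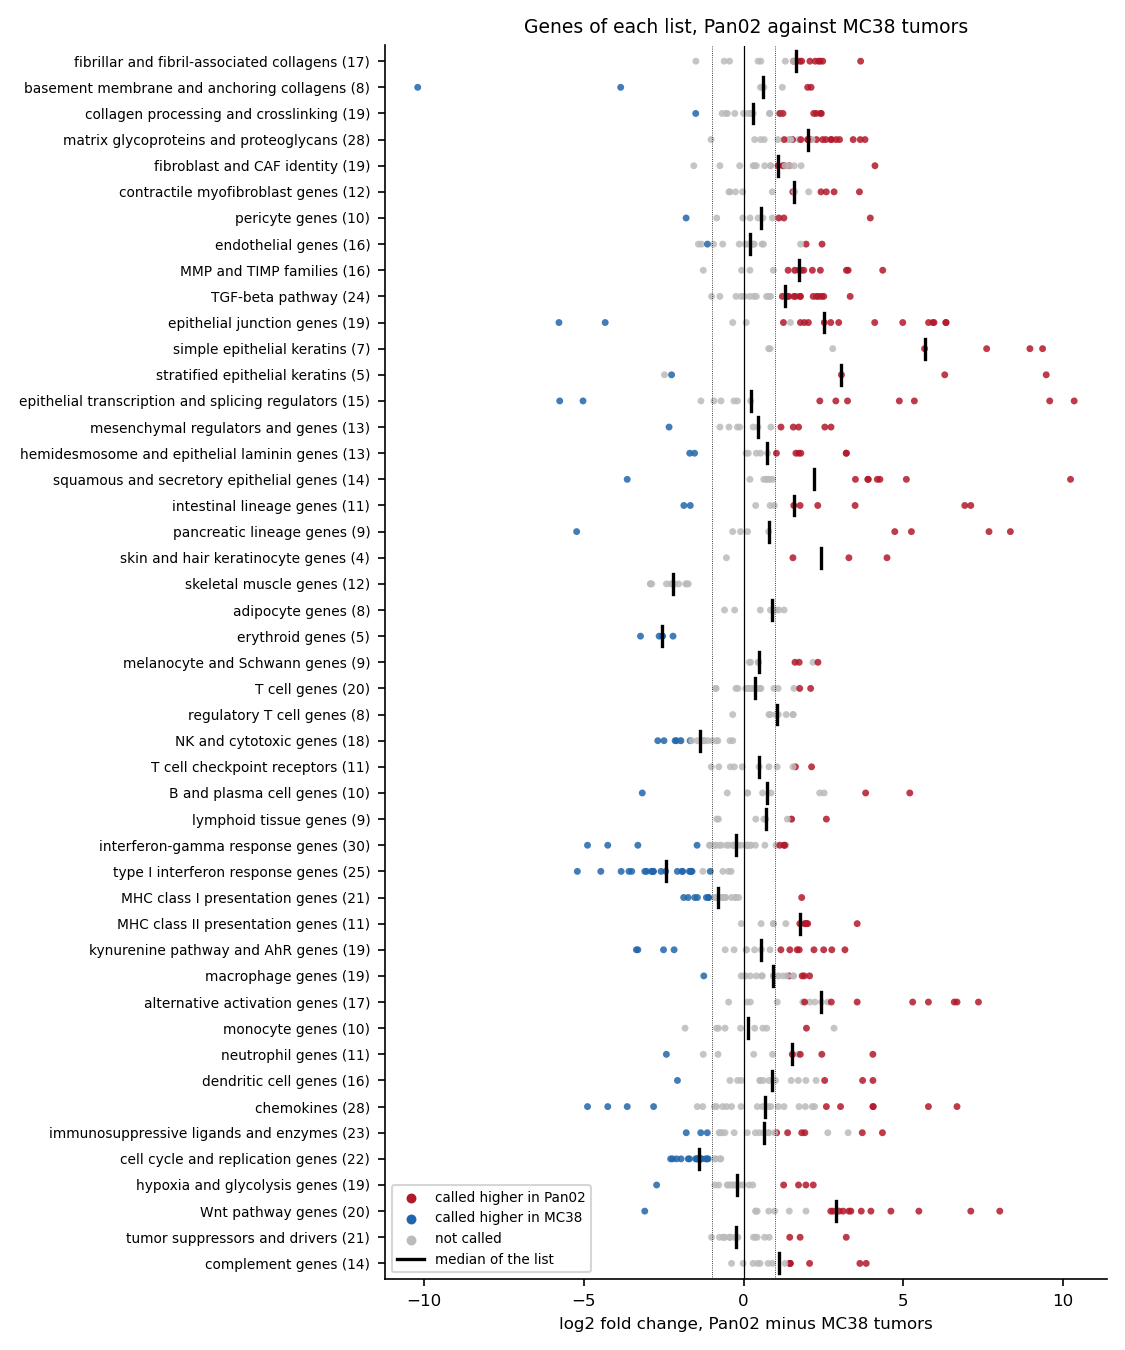
Log2 difference, Pan02 minus MC38, of each tested gene (point) in the gene lists described, with the median of each list as a black line and called genes coloured by direction. Fibrillar collagens, matrix glycoproteins and simple keratins lie to the Pan02 side, with medians of 1.65, 2.02 and 5.67, and type I interferon and cell cycle genes to the MC38 side, with medians of -2.44 and -1.38.

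Pan02 tumors carried far more matrix RNA. Of 17 tested fibrillar and fibril-associated collagens, 10 were higher in Pan02 (17.2% of all tested genes) and 0 in MC38 (12.5%), with a median difference of 1.65 against 0.07 over all tested genes. All 3 Pan02 tumors lay above all 3 MC38 tumors for 11 of the 17, against 31.6% of all tested genes. *Col1a1*, the main chain of type I collagen (chromosome 11, 94936224 to 94953042, plus strand), measured 26215, 25954 and 20782 CPM in Pan02 tumors and 6019.9, 1104 and 5947 CPM in MC38 tumors (log2 fold change 2.48 ± 0.61, adjusted p = 0.015). MC38 tumor 2 was the lowest, and tumors 1 and 3 of MC38 still lay well under every Pan02 tumor. The collagen list summed to 58254, 60669 and 55204 CPM in Pan02 and 17476, 6097 and 16452 CPM in MC38 tumors.

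Collagens outside type I differed in size and in direction. *Col12a1*, which decorates fibrils, measured 1899.7, 1179.8 and 1342 CPM against 149, 43.0 and 156 CPM (3.67 ± 0.52, adjusted p = 0.0018), and *Col5a2*, which limits fibril width, 1380.0, 1145 and 1100.4 CPM against 305, 70.6 and 311 CPM (2.40 ± 0.53, adjusted p = 0.010). *Col6a2*, of the beaded filaments around cells, was uniform within each model, at 2028, 2243 and 2971 CPM in Pan02 and 563, 641 and 510.5 CPM in MC38 (2.08 ± 0.20, adjusted p = 0.00041). For *Col3a1*, at 6850.0, 11112 and 10507 CPM against 3815, 899.7 and 3339 CPM (1.82 ± 0.53, adjusted p = 0.027), the call was lost without any of 3 tumors. The value was 1.68, adjusted p = 0.078 without Pan02 tumor 2, it was 1.68, adjusted p = 0.074 without Pan02 tumor 3, and leaving out MC38 tumor 3 gave 2.00, adjusted p = 0.054. *Col5a3* and *Col16a1* had values on the other side, with differences of -0.60 and -0.44, under the size needed for a call. Among 8 tested basement membrane and anchoring collagens the calls were 2 and 2, with 1 higher in Pan02 without any 1 of the MC38 tumors. *Col18a1*, the source of endostatin, was higher in Pan02 (2.01 ± 0.38, adjusted p = 0.0054). The neighbouring chains *Col4a5* and *Col4a6* of a specialized basement membrane were higher in MC38. *Col4a6* had no count in Pan02 tumors and 7.16, 10.9 and 6.73 CPM in MC38 tumors, at least 46.2-fold higher against a floor of 3 counts (adjusted p = 0.00054).

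Glycoproteins of the matrix rose with the collagens. Of 28 tested, 18 were higher in Pan02 and 0 in MC38, with a median of 2.02. For 22 all Pan02 tumors lay above all MC38 tumors, against 31.6% of all tested genes. *Fn1*, fibronectin, measured 7819.7, 7444 and 9364 CPM in Pan02 and 1198, 1189 and 1299 CPM in MC38 tumors (log2 fold change 2.74 ± 0.17, adjusted p = 0.00015). Its MC38 values were nearly equal, tumor 2 included, unlike those of *Col1a1*, *Col3a1*, *Col5a2* and *Col12a1*. *Tnc*, tenascin C of remodelling matrix, measured 2598, 1608 and 1057 CPM against 193, 80.6 and 144 CPM (3.66 ± 0.46, adjusted p = 0.0011), and *Postn*, periostin, 1734, 1810.5 and 1995 CPM against 339, 139 and 517 CPM (2.48 ± 0.45, adjusted p = 0.0046). *Efemp1*, a fibulin, showed the widest gap among the 28, at 131, 253 and 243 CPM against 22.1, 8.31 and 14.4 CPM (3.81 ± 0.43, adjusted p = 0.00083). Values of *Vcan*, versican, overlapped, at 44.6, 23.5 and 18.9 CPM and 33.7, 9.26 and 25.4 CPM (0.35 ± 0.51, adjusted p = 0.59).

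Some enzymes that build and cut collagen were higher in Pan02. Of 19 processing genes, 6 were higher in Pan02 (31.6%, against 17.2% of all tested genes) and 1 in MC38 (5.26%, against 12.5%). The crosslinking enzymes *Loxl1* (2.41 ± 0.48, adjusted p = 0.0064) and *Loxl2* (2.44 ± 0.51, adjusted p = 0.0081) were higher in Pan02, with *Loxl2* at 288, 208 and 192 CPM against 66.9, 15.1 and 45.0 CPM. None of the prolyl and lysyl hydroxylases or collagen chaperones listed was called. Their differences ran from that of the lysyl hydroxylase *Plod3* (-0.67 ± 0.14, adjusted p = 0.0070) to that of the prolyl hydroxylase subunit *P4ha3* (1.12 ± 0.40, adjusted p = 0.053). The lysyl hydroxylase *Plod2* was also on the MC38 side (-0.54 ± 0.16, adjusted p = 0.025), and the chaperone *Serpinh1* had a difference of 0.22 (adjusted p = 0.20). The 1 gene higher in MC38 was *Adamts14*, a procollagen N-propeptidase (-1.50 ± 0.22, adjusted p = 0.0019), while its relative *Adamts2* was higher in Pan02 (2.20 ± 0.51, adjusted p = 0.012). Of 16 tested metalloproteinases and inhibitors, 10 were higher in Pan02 and 0 in MC38, 7 to 11 when a tumor was left out. *Mmp14*, a membrane-bound collagenase, measured 2417, 2391 and 2216 CPM against 662, 606 and 731 CPM (1.81 ± 0.14, adjusted p = 0.00025), and *Timp2*, its partner and inhibitor, 1299.8, 1953 and 2428 CPM against 347, 353 and 371 CPM (2.41 ± 0.24, adjusted p = 0.00048). *Mmp9*, gelatinase B, overlapped, at 75.3, 39.5 and 53.9 CPM and 30.8, 64.4 and 51.6 CPM (0.20 ± 0.33, adjusted p = 0.63).

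**Figure D2:**
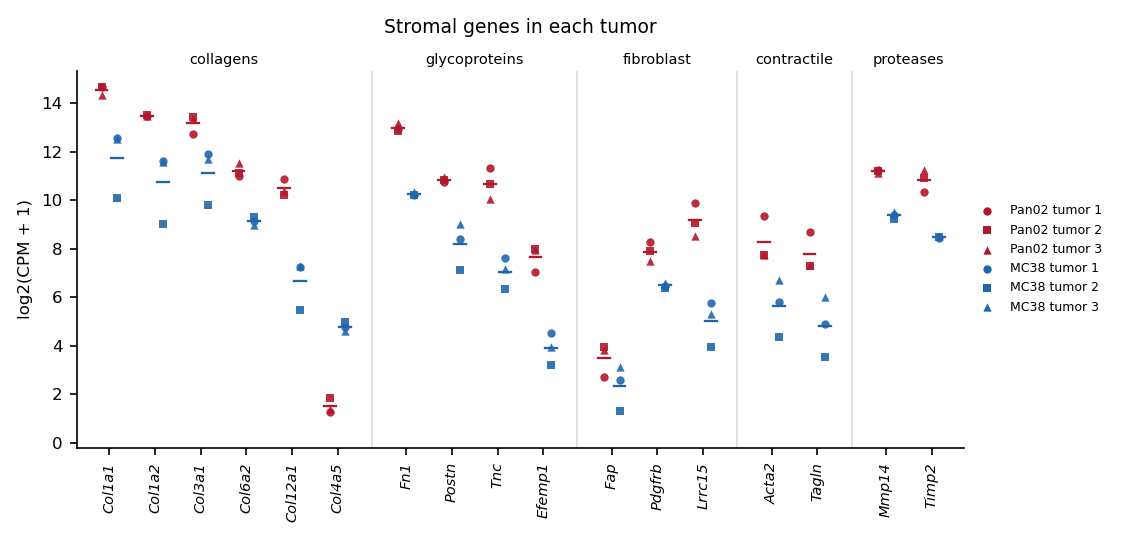
Log2(CPM + 1) of stromal genes in each of the 3 Pan02 and 3 MC38 tumors (points), with the mean of each model as a short line. The Pan02 points of *Col1a1*, *Fn1* and *Tnc* lie above the MC38 points, with MC38 tumor 2 lowest for *Col1a1*, and the points of *Fap* overlap.

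The count of called fibroblast identity genes depended on Pan02 tumor 1. Of 19 tested, 5 were higher in Pan02 (26.3%, against 17.2% of all tested genes) and 0 in MC38 (against 12.5%), with a median of 1.08. Without Pan02 tumor 1 these counts were 9 and 1. All Pan02 tumors lay above all MC38 tumors for 5 of the 19, and the reverse held for 2. *Cd34*, with 5495 counts in all Pan02 tumors together and 18413.5 in MC38, and *Twist2*, with 2136 and 3780, were on the MC38 side. *Fap*, the protease used to sort CAFs in this study, measured 5.51, 14.6 and 13.3 CPM in Pan02 and 5.02, 1.502 and 7.62 CPM in MC38 tumors (log2 fold change 1.25 ± 0.62, adjusted p = 0.14) and overlapped. *Pdgfrb*, a receptor of fibroblasts and pericytes, measured 306, 236 and 180.1 CPM against 88.0, 83.4 and 94.8 CPM (1.44 ± 0.20, adjusted p = 0.0015). *Lrrc15*, a marker of myofibroblastic CAFs, had the largest difference of the 19, at 951, 539 and 368 CPM against 53.7, 14.3 and 39.2 CPM (4.12 ± 0.59, adjusted p = 0.0019). *Pi16*, *Clec3b* and *Dpt*, often used as genes of resting fibroblasts, were not called. *Pi16* measured 20.7, 165 and 196 CPM and 59.7, 30.8 and 123 CPM, and *Clec3b* 4.88, 72.8 and 114 CPM and 30.7, 9.86 and 37.1 CPM, both lowest in Pan02 tumor 1 (adjusted p = 0.42 and 0.30). *Dpt* measured 22.1, 209 and 215 CPM and 64.4, 21.5 and 77.6 CPM (1.45 ± 0.83, adjusted p = 0.19), with Pan02 tumors 2 and 3 above all MC38 tumors and Pan02 tumor 1 within their range.

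Contractile genes depended on single tumors. Of 12, 5 were higher in Pan02 and 0 in MC38, but 0 without MC38 tumor 1 and 3 without Pan02 tumor 1 or MC38 tumor 2. *Acta2*, smooth muscle actin, measured 644, 212 and 212 CPM in Pan02 and 54.1, 19.7 and 104 CPM in MC38 tumors (log2 fold change 2.59 ± 0.71, adjusted p = 0.022). Pan02 tumor 1 was the highest, and the call was lost without it (1.75, adjusted p = 0.069) and without MC38 tumor 1 (2.53, adjusted p = 0.073). *Tagln*, another smooth muscle gene, lost its call without MC38 tumor 1 (2.72, adjusted p = 0.058), and 68% of its exon bases are shared with another annotated gene, which unstranded counting cannot separate.

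Few vessel genes were called. Of 16 endothelial genes, 2 were higher in Pan02 (12.5%, against 17.2% of all tested genes) and 1 in MC38 (6.25%, against 12.5%), with a median of 0.19. The 1 became 3 without MC38 tumor 1, 2 without Pan02 tumor 1 and 0 without MC38 tumor 3. All Pan02 tumors lay above all MC38 tumors for 2 of the 16, and the reverse held for 2. *Cdh5*, with 2918 counts in all Pan02 tumors together and 5780 in MC38, and *Egfl7*, with 1207 and 2738.5, were on the MC38 side. *Pecam1* measured 60.9, 73.4 and 83.3 CPM and 54.5, 51.8 and 94.8 CPM (0.12 ± 0.26, adjusted p = 0.73) and overlapped. *Flt1*, a VEGF receptor, was higher in Pan02, at 135, 108 and 118 CPM against 19.4, 17.6 and 28.7 CPM (2.46 ± 0.21, adjusted p = 0.00033), as was *Vwf*, a clotting factor stored in endothelium (1.96 ± 0.41, adjusted p = 0.0082). Of 10 pericyte genes, 3 were higher in Pan02 (30.0%, against 17.2% of all tested genes) and 1 in MC38 (10.0%, against 12.5%), with a median of 0.53. The count in Pan02 was 1 without Pan02 tumor 3 and 5 without MC38 tumor 3. *Notch3* measured 358, 299 and 216 CPM against 17.1, 8.26 and 30.5 CPM (3.97 ± 0.50, adjusted p = 0.0011). The 1 higher in MC38 was *Angpt1*, a vessel-stabilizing ligand (-1.80 ± 0.38, adjusted p = 0.0081). *Cspg4* held 509 counts in all Pan02 tumors together and 452.5 in MC38, *Mcam* 3352 and 3368.5, and *Des* 5320 and 7879.

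Components of the TGF-β pathway, which drives matrix production in fibroblasts, were higher in Pan02 at several levels. Of 24 tested, 13 were higher in Pan02 and 0 in MC38, with a median of 1.30. Among ligands, *Tgfb3* (1.39 ± 0.26, adjusted p = 0.0046) and *Inhba* (2.18 ± 0.36, adjusted p = 0.0033) were called, and *Tgfb1*, at 366, 294 and 319 CPM against 176, 197 and 192 CPM (0.79 ± 0.13, adjusted p = 0.0029), passed the test below the size needed. Of the proteins that hold the latent ligand, *Ltbp3* measured 764, 759 and 469 CPM against 129, 90.8 and 129 CPM (2.51 ± 0.25, adjusted p = 0.00048) and *Lrrc32* 60.6, 82.4 and 65.9 CPM against 15.2, 8.31 and 17.4 CPM (2.35 ± 0.29, adjusted p = 0.00100). The receptor *Tgfbr2*, at 426, 646 and 583 CPM against 183, 106 and 195 CPM (1.77 ± 0.27, adjusted p = 0.0023), and the signal carrier *Smad3* (1.57 ± 0.27, adjusted p = 0.0034) were higher in Pan02. *Smad4*, the shared partner of these carriers, had its values on the MC38 side, at 45.5, 43.5 and 35.9 CPM against 87.0, 87.1 and 75.6 CPM (-0.9999 ± 0.14, adjusted p = 0.0014), just under the size needed, and was called in 10 of the alternatives.

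Sorted CAFs were also measured. FAP+ cells from the CD45- fraction of tumors of both models were sequenced in 2 libraries each and deposited as RPKM, scaled separately from the tumors, so these values carry no test. *Col1a1* measured 1535 and 795 RPKM in the Pan02 libraries and 2771 and 467 RPKM in the MC38 libraries, and *Fap* 3.28 and 1.89 RPKM against 11.4 and 4.29 RPKM. The ranges of *Col1a1* overlapped, and both MC38 values of *Fap* lay above those of Pan02. *Fn1* measured 1897 and 1261 RPKM in Pan02 and 486 and 248 RPKM in MC38 CAFs, in the same order as in the tumors. Keratin RNA was also present in the sorted Pan02 cells, with *Krt18* at 349 and 483 RPKM against 0.979 and 0.116 RPKM. RNA of *Tex13b*, a testis gene described below, was present in the sorted MC38 cells, at 34.6 and 54.7 RPKM against 0 and 0.0790 RPKM. The part of epithelial or other cancer cells in the CAF libraries of both models was not tested, here or where CAF values are given below.

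Epithelial genes were largely on the Pan02 side. Of 19 tested junction genes, 14 were higher in Pan02 and 2 in MC38, with a median of 2.53. *Cdh1*, E-cadherin, measured 79.2, 215 and 243 CPM in Pan02 tumors and 3.56, 2.60 and 2.58 CPM in MC38 tumors (log2 fold change 5.93 ± 0.50, adjusted p = 0.00034). *Cldn7*, a tight junction claudin, measured 8.13, 8.43 and 5.77 CPM against 0.0974, 0.150 and 0.136 CPM (5.80 ± 0.39, adjusted p = 0.00017), and *Evpl*, envoplakin of desmosomes and the cornified envelope, 30.7, 45.4 and 17.99 CPM against 0.146, 0.601 and 0.408 CPM (6.33 ± 0.57, adjusted p = 0.00040). No tumor of one model reached the other for these genes. *Epcam*, the common epithelial surface marker, was low in both, at 1.06, 2.28 and 1.54 CPM against 0.195, 0.250 and 0.272 CPM (2.73 ± 0.46, adjusted p = 0.0030). The 2 junction genes higher in MC38 were claudins, *Cldn6* at 3.90, 1.25 and 2.45 CPM with 0, 0 and 0.123 CPM in Pan02 (adjusted p = 0.0027) and *Cldn23* at 3.02, 2.25 and 2.04 CPM against 0.193, 0.138 and 0 CPM (-4.33 ± 0.68, adjusted p = 0.0022).

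Simple keratins had the largest median difference of the lists. Of 7 tested, 4 were higher in Pan02 and 0 in MC38, with a median of 5.67, and the list summed to 2223, 3461 and 2400.3 CPM in Pan02 and 78.5, 17.3 and 23.7 CPM in MC38 tumors. *Krt18*, a keratin of simple glands, measured 915, 1365 and 972 CPM against 1.36, 1.55 and 2.04 CPM (9.37 ± 0.30, adjusted p = 3.7e-05). *Krt19*, of ducts, measured 279.5, 501 and 283 CPM against 1.27, 0.200 and 0.612 CPM (8.97 ± 0.62, adjusted p = 0.00021), and *Krt7*, also of ducts, 184, 225 and 76.4 CPM against 1.51, 0.401 and 0.476 CPM (7.61 ± 0.67, adjusted p = 0.00038). *Krt8*, the partner of *Krt18*, was uneven in MC38, with tumor 1 far above the others, at 818, 1339.6 and 1039 CPM against 55.4, 4.21 and 2.86 CPM (5.67 ± 1.24, adjusted p = 0.0096). *Krt20*, a keratin of gut epithelium, overlapped at 1.21, 0.622 and 0.983 CPM and 0.584, 0.701 and 0.272 CPM (0.83 ± 0.48, adjusted p = 0.18). Skin keratinocyte genes, which a subcutaneous fragment could hold, were low throughout: *Krt5* did not pass the filter on low counts, and its values were 1.55, 0.345 and 0.184 CPM and 0, 0.0501 and 0 CPM. Of 4 tested skin genes, 3 were higher in Pan02 (*Krt10*, *Krt79* and *Lor*), with *Krt79* losing its call without MC38 tumor 1 or 3 (adjusted p from 0.054 to 0.057). The skin list summed to 13.7, 19.7 and 37.4 CPM in Pan02 and 24.9, 8.46 and 15.5 CPM in MC38. The part of skin in the epithelial difference was not tested.

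Regulators of epithelial identity went both ways. Of 15 tested, 7 were higher in Pan02 (46.7%, against 17.2% of all tested genes) and 2 in MC38 (13.3%, against 12.5%). The count in MC38 was 6 without Pan02 tumor 1. *Klf5*, of gut and ductal progenitors, measured 116, 194 and 92.4 CPM against 19.3, 18.2 and 16.7 CPM (2.89 ± 0.29, adjusted p = 0.00053), and *Trp63*, of basal and squamous cells, 54.5, 25.003 and 14.1 CPM against 0.779, 1.00 and 1.43 CPM (4.88 ± 0.59, adjusted p = 0.00100). The squamous and secretory list held 7 of 14 tested genes higher in Pan02 and 1 in MC38, with *Anxa8* at 122, 132 and 122 CPM against 3.604, 1.15 and 6.39 CPM (5.10 ± 0.55, adjusted p = 0.00069) and the cornified envelope gene *Sprr1a* at 41.6, 12.3 and 26.8 CPM against 1.17, 1.05 and 3.33 CPM (3.89 ± 0.64, adjusted p = 0.0030). The splicing regulators *Esrp1* and *Esrp2* were on opposite sides. *Esrp2* measured 4.59, 4.83 and 4.24 CPM against 0.633, 0.300 and 0.476 CPM (3.26 ± 0.38, adjusted p = 0.00076), whereas *Esrp1* had 1 count in all Pan02 tumors together and 1.27, 0.701 and 0.544 CPM in MC38 (adjusted p = 0.0030). *Ovol2*, a repressor of mesenchymal genes, was higher in MC38, at 11.3, 12.2 and 9.93 CPM against 0.0484, 0.207 and 0.368 CPM (-5.75 ± 0.55, adjusted p = 0.00041). The same order held in sorted CAFs, where *Ovol2* measured 0.0420 and 0.0950 RPKM in Pan02 and 19.6 and 28.2 RPKM in MC38.

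The mesenchymal list also had more genes higher in Pan02. Of 13 tested genes, 5 were higher in Pan02 (38.5%, against 17.2% of all tested genes) and 1 in MC38 (7.69%, against 12.5%). *Cdh2*, N-cadherin, was the 1 higher in MC38, at 20.7, 23.1 and 21.6 CPM against 3.43, 5.87 and 3.75 CPM (-2.33 ± 0.25, adjusted p = 0.00062). Per kilobase of transcript, the ratio of *Cdh1* to *Cdh2*, chosen after the values were seen, was 25.2, 40.1 and 70.9 in Pan02 tumors and 0.187, 0.123 and 0.131 in MC38 tumors. *Vim*, vimentin of mesenchymal cells, measured 4291, 3560.2 and 3176 CPM and 2958, 2715 and 2389 CPM (0.45 ± 0.18, adjusted p = 0.070). *Zeb1*, a repressor of *Cdh1*, was higher in Pan02, at 51.7, 64.9 and 48.7 CPM against 22.4, 15.6 and 18.1 CPM (1.56 ± 0.19, adjusted p = 0.00087). *Snai1* overlapped (-0.45 ± 0.35, adjusted p = 0.31). Of 13 hemidesmosome and epithelial laminin genes, 6 were higher in Pan02 (46.2%, against 17.2% of all tested genes) and 2 in MC38 (15.4%, against 12.5%). The integrin chain *Itgb4* measured 271, 412 and 277 CPM against 25.5, 43.2 and 34.3 CPM (3.22 ± 0.27, adjusted p = 0.00029), and *Itga3* was also higher in Pan02 (3.22 ± 0.34, adjusted p = 0.00064). *Itga6*, the partner of *Itgb4*, overlapped (0.15 ± 0.19, adjusted p = 0.52), as did *Itgb6* (0.40 ± 0.77, adjusted p = 0.68), while the laminin chain *Lama3* (-1.68 ± 0.42, adjusted p = 0.014) was higher in MC38.

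**Figure D3:**
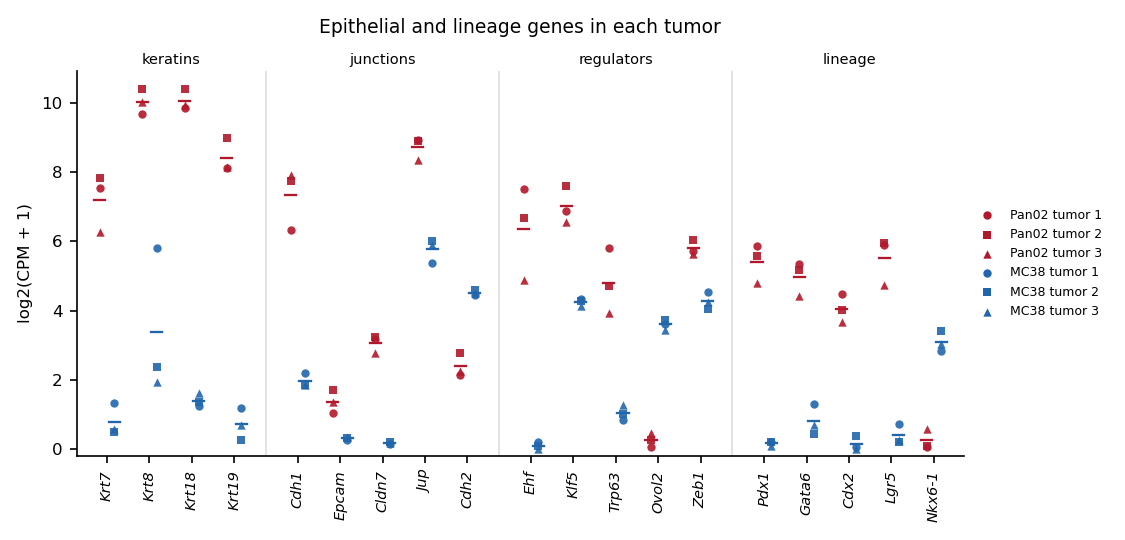
Log2(CPM + 1) of epithelial and lineage genes in each of the 3 Pan02 and 3 MC38 tumors (points), with the mean of each model as a short line. *Cdh1*, *Krt18*, *Krt19* and *Pdx1* are separated by wide gaps with Pan02 above, and *Cdh2* and *Ovol2* lie the other way.

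Of 9 tested pancreatic genes, 4 were higher in Pan02 (44.4%, against 17.2% of all tested genes) and 1 in MC38 (11.1%, against 12.5%). Beside *Pdx1*, *Gata6*, of classical pancreatic epithelium, measured 39.4, 34.9 and 20.5 CPM against 1.46, 0.351 and 0.612 CPM (5.26 ± 0.55, adjusted p = 0.00061). *Sox9*, of ductal and progenitor cells, overlapped at 215, 161 and 106 CPM and 159, 156 and 126 CPM (0.13 ± 0.25, adjusted p = 0.70). *Nkx6-1*, of islet β-cells and their precursors, was higher in MC38, at 6.14, 9.66 and 7.21 CPM against 0.0484, 0.0691 and 0.491 CPM (-5.22 ± 0.73, adjusted p = 0.0014). The acinar gene *Cela1* overlapped (-0.09 ± 0.40, adjusted p = 0.86).

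Wnt genes, which maintain gut and ductal stem cells, were largely on the Pan02 side. Of 20 tested, 12 were higher in Pan02 and 1 in MC38, with a median of 2.90. Among ligands, *Wnt10a* measured 129, 219.6 and 152 CPM against 6.53, 12.8 and 12.2 CPM (3.99 ± 0.34, adjusted p = 0.00035) and *Wnt6* 46.3, 43.7 and 36.9 CPM against 4.82, 4.36 and 3.67 CPM (3.30 ± 0.18, adjusted p = 0.00011). Of the feedback targets, *Axin2* measured 16.6, 17.1 and 20.1 CPM against 2.14, 2.25 and 2.31 CPM (2.999 ± 0.21, adjusted p = 0.00017) and *Notum*, a secreted inhibitor with 38% of its exon bases shared with another gene, 137, 246 and 97.5 CPM against 0.292, 0.701 and 0.884 CPM (8.03 ± 0.55, adjusted p = 0.00020). The target *Rnf43*, which removes Wnt receptors, was also higher (2.73 ± 0.36, adjusted p = 0.0011). *Lef1*, a nuclear mediator, was the 1 gene higher in MC38, at 14.2, 23.6 and 18.2 CPM against 1.16, 3.32 and 2.15 CPM (-3.09 ± 0.42, adjusted p = 0.0013). *Ctnnb1*, β-catenin, passed the test below the size needed, at 864, 771 and 709 CPM against 431, 388 and 374 CPM (0.97 ± 0.14, adjusted p = 0.0016).

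The T cell lists gave few calls, and the pair had been chosen for its lymphoid levels. Of 20 T cell genes, 2 were higher in Pan02 (10.0%, against 17.2% of all tested genes) and 0 in MC38 (against 12.5%), with a median of 0.35. The count higher in Pan02 was 5 without Pan02 tumor 1 and 1 without any 1 of the MC38 tumors, and 2 genes were higher in MC38 without Pan02 tumor 2. *Cd3e*, of the T cell receptor complex, measured 3.19, 19.2 and 8.97 CPM in Pan02 and 7.69, 6.91 and 8.30 CPM in MC38 tumors (log2 fold change 0.45 ± 0.58, adjusted p = 0.54). The list summed to 58.1, 269 and 137 CPM in Pan02 and 126, 105 and 126 CPM in MC38, so the Pan02 tumors lay on both sides of the MC38 range. *Cd4* was 1 of the 2 called, at 8.08, 25.1 and 16.03 CPM against 3.02, 2.95 and 5.51 CPM (2.10 ± 0.47, adjusted p = 0.010), and is also made by macrophages. *Cd8a* measured 3.48, 23.9 and 5.59 CPM and 22.0, 15.9 and 22.3 CPM (-0.88 ± 0.68, adjusted p = 0.32), with Pan02 tumor 2 as high as the MC38 tumors, and was higher in MC38 without that tumor (-2.15, adjusted p = 0.0057). Per kilobase, the ratio of *Cd4* to *Cd8a*, chosen after the values were seen, was 2.36, 1.07 and 2.91 in Pan02 and 0.140, 0.188 and 0.251 in MC38. *Bcl11b*, the other called gene, lost its call without any 1 of the MC38 tumors (adjusted p from 0.068 to 0.082).

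Regulatory T cell genes gave no call with edgeR among 8 tested, of which 1, *Tnfrsf9*, had an adjusted p under 0.05 (0.035), and 7 were higher in Pan02 without Pan02 tumor 1. *Foxp3*, their defining factor, measured 12.7, 31.2 and 23.6 CPM and 13.4, 12.2 and 12.2 CPM (0.83 ± 0.32, adjusted p = 0.064). Of 11 checkpoint receptors, 2 were higher in Pan02 (*Tigit* and *Btla*, 18.2%, against 17.2% of all tested genes) and 0 in MC38. *Pdcd1*, encoding PD-1, measured 4.30, 12.8 and 7.92 CPM and 10.6, 6.01 and 9.11 CPM (-0.04 ± 0.43, adjusted p = 0.94) and overlapped. The call of *Tigit* was lost without any 1 of the tumors but Pan02 tumor 1 (adjusted p from 0.079 to 0.13), and that of *Btla* without Pan02 tumor 2 (1.53, adjusted p = 0.068) and without MC38 tumor 2 or 3 (1.81, adjusted p = 0.071, and 2.06, adjusted p = 0.070).

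Cytotoxic genes were on the MC38 side. Of 18 tested, 6 were higher in MC38 and 0 in Pan02, with a median of -1.36, and in 10 of them all MC38 tumors lay above all Pan02 tumors, against 30.2% of all tested genes. The count of 6 rose to 11 without Pan02 tumor 2 and fell to 3 without Pan02 tumor 3, MC38 tumor 1 or MC38 tumor 3. *Gzmb*, granzyme B of killer cells, measured 56.8, 69.2 and 57.8 CPM in MC38 and 2.08, 15.1 and 11.6 CPM in Pan02 tumors (log2 fold change -2.68 ± 0.63, adjusted p = 0.012). *Gzmc*, a related granzyme, measured 39.0, 79.2 and 60.9 CPM against 6.53, 7.46 and 17.9 CPM (-2.49 ± 0.46, adjusted p = 0.0048), and *Eomes*, a regulator of cytotoxic cells, 17.4, 27.6 and 24.8 CPM against 4.79, 8.22 and 2.82 CPM (-2.14 ± 0.40, adjusted p = 0.0050). These 3 kept their calls in all 14 alternatives. *Ncr1*, which defines NK cells, was scarce, at 0.974, 2.30 and 1.09 CPM against 0.0484, 0.691 and 0.430 CPM (-1.95 ± 0.77, adjusted p = 0.072). *Ifng*, interferon-γ itself, overlapped at 3.02, 2.95 and 3.81 CPM and 0.725, 2.97 and 0.860 CPM (-1.12 ± 0.57, adjusted p = 0.14).

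Plasma cell RNA was high in 2 Pan02 tumors. *Jchain*, which joins antibodies, measured 9.53, 202 and 172 CPM in Pan02 and 2.19, 2.25 and 6.12 CPM in MC38 tumors (log2 fold change 5.21 ± 1.15, adjusted p = 0.0098), low in Pan02 tumor 1 and above all MC38 tumors in each. Of 10 tested B and plasma cell genes, 2 were higher in Pan02 (20.0%, against 17.2% of all tested genes) and 1 in MC38 (10.0%, against 12.5%). The count in Pan02 was 7 without Pan02 tumor 1 and 1 without any 1 of the other tumors. The 1 higher in MC38 was *Pax5*, at 2.58, 2.80 and 1.97 CPM against 0.0484, 0.553 and 0.246 CPM (-3.17 ± 0.67, adjusted p = 0.0075), while *Cd79a* of the B cell receptor overlapped (-0.51 ± 0.65, adjusted p = 0.54). *Cxcl13*, which draws B cells to follicles, measured 2.18, 15.6 and 8.78 CPM against 0.877, 2.25 and 1.22 CPM (2.59 ± 0.75, adjusted p = 0.026), and its call was lost without Pan02 tumor 2, Pan02 tumor 3, MC38 tumor 1 or MC38 tumor 3 (adjusted p from 0.057 to 0.088).

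The type I interferon response had the highest share of called genes among the immune lists. Of 25 tested genes, 21 were higher in MC38 and 0 in Pan02, with a median of -2.44. The count in MC38 was 19 to 23 when a tumor was left out. For 22 all MC38 tumors lay above all Pan02 tumors, against 30.2% of all tested genes. The list summed to 2934, 4701 and 3289 CPM in MC38 and 487, 1105 and 645 CPM in Pan02 tumors. *Rsad2*, viperin, an antiviral enzyme, measured 381, 643 and 438 CPM in MC38 and 7.497, 19.5 and 12.8 CPM in Pan02 tumors (log2 fold change -5.20 ± 0.43, adjusted p = 0.00032). *Isg15*, a ubiquitin-like protein, measured 149.6, 322 and 189 CPM against 12.5, 28.1 and 17.9 CPM (-3.50 ± 0.41, adjusted p = 0.00091), and *Oas3*, a sensor enzyme of double-stranded RNA, 165, 247 and 152 CPM against 11.99, 24.7 and 10.4 CPM (-3.59 ± 0.39, adjusted p = 0.00073). MC38 tumor 2, lowest for the summed fibrillar collagens, was highest for each of these 3. The factors that carry the signal had smaller differences, with -1.70 ± 0.22 for *Stat2*, -1.91 ± 0.37 for *Irf7* and -0.39 ± 0.19 for *Irf9*, the last not called. *Ifit1*, *Ifit2* and *Ifit3* were also uncalled, at -1.27, -0.47 and -0.64, and *Ifit3* may share reads with its near copy *Ifit3b*. Sorted CAFs had the same order. *Isg15* measured 492 and 331 RPKM in MC38 and 26.0 and 19.8 RPKM in Pan02, and *Rsad2* 49.3 and 64.2 RPKM against 1.94 and 2.24 RPKM. The part of cancer cells in these libraries was not tested.

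Interferon-γ response genes were called in MC38 at a share near that of all tested genes and in Pan02 at a lower one. Of 30 tested, 3 were higher in Pan02 (10.0%, against 17.2% of all tested genes) and 4 in MC38 (13.3%, against 12.5%). The median was -0.23. *Irf1*, the first factor induced by interferon-γ, measured 471, 393 and 402 CPM in MC38 and 192, 369 and 219 CPM in Pan02 tumors (-0.70 ± 0.26, adjusted p = 0.058). *Gbp2*, a guanylate-binding protein, measured 489, 337 and 417 CPM and 152, 726 and 235 CPM (-0.16 ± 0.55, adjusted p = 0.83). Pan02 tumor 2 was above all MC38 tumors for *Gbp2*, tumors 1 and 3 below them, and without tumor 2 the number higher in MC38 rose from 4 to 16. The 4 called were *Cxcl10*, *Cxcl11*, *Gbp7* and *Ido1*. *Cxcl10*, a chemokine for T cells, measured 508, 678 and 521 CPM against 12.8, 54.1 and 22.8 CPM (-4.25 ± 0.55, adjusted p = 0.0012) and is also induced by type I interferon, while *Cxcl9* overlapped at 141, 94.3 and 154 CPM and 29.5, 115 and 63.5 CPM (-0.91 ± 0.47, adjusted p = 0.14). *Gbp7* lost its call without Pan02 tumor 3 (-1.36, adjusted p = 0.065) and without MC38 tumor 1 or 2 (-1.36, adjusted p = 0.075, and -1.46, adjusted p = 0.063). The receptor chain *Ifngr2* (1.27 ± 0.16, adjusted p = 0.0010) and the kinase *Jak2* (1.29 ± 0.16, adjusted p = 0.0010) were higher in Pan02.

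Promoter sequences are shown for 4 interferon genes higher in MC38 and 2 interferon-γ genes not called, because the lists share inducers and differ in outcome. Each is the 250 bases before the RefSeq start (GRCm38.p6), written 5′ to 3′ on the gene's strand, with capitals on matches to the interferon-stimulated response element (ISRE, here 2 copies of GAAA with any 2 bases between them) or the γ-activated site (GAS, TTCNNNGAA), searched on both strands. *Isg15* lies at chr4:156200819-156201068, minus strand, *Rsad2* at chr12:26456453-26456702, minus strand, *Oas3* at chr5:120777660-120777909, minus strand, *Cxcl10* at chr5:92348890-92349139, minus strand, *Irf1* at chr11:53769764-53770013, plus strand and *Gbp2* at chr3:142620413-142620662, plus strand.
Isg15: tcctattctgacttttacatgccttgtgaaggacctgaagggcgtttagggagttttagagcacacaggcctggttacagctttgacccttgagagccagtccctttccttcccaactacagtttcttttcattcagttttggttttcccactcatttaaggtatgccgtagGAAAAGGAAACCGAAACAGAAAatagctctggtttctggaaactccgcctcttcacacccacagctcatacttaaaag
Rsad2: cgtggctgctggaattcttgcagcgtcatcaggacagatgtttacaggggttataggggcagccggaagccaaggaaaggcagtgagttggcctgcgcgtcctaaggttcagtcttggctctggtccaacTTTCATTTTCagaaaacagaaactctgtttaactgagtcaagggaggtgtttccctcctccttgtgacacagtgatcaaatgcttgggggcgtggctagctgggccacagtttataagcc
Oas3: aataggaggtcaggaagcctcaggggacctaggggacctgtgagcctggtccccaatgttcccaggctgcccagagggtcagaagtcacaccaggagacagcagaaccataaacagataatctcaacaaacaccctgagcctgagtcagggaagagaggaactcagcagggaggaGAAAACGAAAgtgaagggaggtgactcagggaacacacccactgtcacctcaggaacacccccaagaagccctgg
Cxcl10: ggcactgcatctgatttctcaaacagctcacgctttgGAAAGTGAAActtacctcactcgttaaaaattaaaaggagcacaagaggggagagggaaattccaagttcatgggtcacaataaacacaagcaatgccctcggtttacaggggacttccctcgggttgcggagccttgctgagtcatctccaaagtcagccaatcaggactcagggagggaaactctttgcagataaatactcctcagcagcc
Irf1: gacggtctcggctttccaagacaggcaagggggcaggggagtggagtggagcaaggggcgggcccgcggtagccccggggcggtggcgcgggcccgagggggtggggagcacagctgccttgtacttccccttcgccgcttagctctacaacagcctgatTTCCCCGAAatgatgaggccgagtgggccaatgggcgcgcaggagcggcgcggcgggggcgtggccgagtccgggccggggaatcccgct
Gbp2: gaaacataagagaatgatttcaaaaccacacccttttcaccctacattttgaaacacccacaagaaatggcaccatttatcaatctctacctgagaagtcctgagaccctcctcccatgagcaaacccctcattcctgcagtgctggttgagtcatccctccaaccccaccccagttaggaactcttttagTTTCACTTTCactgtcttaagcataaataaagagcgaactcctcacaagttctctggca

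The *Isg15* window held 3 overlapping ISRE matches, the nearest beginning 66 bases before the start, and the nearest match began 120 bases before it in *Rsad2*, 75 in *Oas3*, 213 in *Cxcl10* and 59 in *Gbp2*, with a GAS match at 90 in *Irf1*. An ISRE match was present in 978 of 32851 promoter windows (2.98%) and a GAS match in 2306 (7.02%). Of the listed genes with a window, 8 of 18 type I interferon genes held an ISRE match and 2 a GAS match, and 11 of 19 interferon-γ genes held an ISRE match and 8 a GAS match. Over all tested genes with a window, an ISRE match was found in 70 of 1455 genes higher in MC38 (4.81%), 36 of 1882 higher in Pan02 (1.91%) and 217 of 8202 not called (2.65%). A match describes letters in the window and not a bound site.

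Antigen presentation split by class. Of 21 MHC class I genes, 7 were higher in MC38 and 1 in Pan02, with a median of -0.79, and the 7 became 11 under total-count scaling or without Pan02 tumor 2. The peptide transporter *Tap1* measured 633, 739.9 and 644 CPM in MC38 and 147, 306 and 153 CPM in Pan02 tumors (log2 fold change -1.73 ± 0.30, adjusted p = 0.0039), and the immunoproteasome subunit *Psmb10* 539, 628 and 515 CPM against 109, 195 and 155 CPM (-1.87 ± 0.23, adjusted p = 0.00091). The heavy chain *H2-K1*, at 3415, 4216 and 3585 CPM and 1674, 3528 and 2385 CPM (-0.56 ± 0.28, adjusted p = 0.13), and the light chain *B2m*, at 1717, 2031 and 1841 CPM and 1145, 1897 and 1632 CPM (-0.26 ± 0.21, adjusted p = 0.33), were not called. The nonclassical *H2-T23*, a ligand of NK receptors, went the other way, at 279, 713 and 532 CPM in Pan02 against 147, 119 and 166 CPM in MC38 (1.82 ± 0.34, adjusted p = 0.0053). Reads of H2 genes can be shared among near copies. Of 11 MHC class II genes, 6 were higher in Pan02 and 0 in MC38, with a median of 1.76, 5 to 8 when a tumor was left out. *H2-Ab1* measured 766, 2466 and 2037 CPM against 522, 319 and 501 CPM (1.97 ± 0.44, adjusted p = 0.011), with Pan02 tumor 1 nearest to MC38, and the invariant chain *Cd74* 1663, 5077 and 4766 CPM against 1245, 667 and 1145 CPM (1.91 ± 0.46, adjusted p = 0.014). *Ciita*, the class II master regulator, overlapped (1.32 ± 0.53, adjusted p = 0.075).

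Tryptophan catabolism, which can restrain T cells, was divided between the models by enzyme. Of 19 tested kynurenine pathway and AhR genes, 8 were higher in Pan02 (42.1%, against 17.2% of all tested genes) and 4 in MC38 (21.1%, against 12.5%). The count of 8 was 3 without MC38 tumor 1 and 4 without MC38 tumor 2 or 3 or without Pan02 tumor 2 or 3. *Ido1* (chromosome 8, 24584133 to 24596952, minus strand), the inducible first enzyme, measured 32.2, 24.0 and 21.3 CPM in MC38 and 1.31, 4.77 and 1.84 CPM in Pan02 tumors (log2 fold change -3.31 ± 0.50, adjusted p = 0.0022), and its neighbour *Ido2* 33.9, 40.3 and 27.2 CPM against 3.68, 7.32 and 6.94 CPM (-2.50 ± 0.30, adjusted p = 0.00090). The lowest MC38 tumor lay well above the highest Pan02 tumor for both genes, and both kept their calls in all 14 alternatives. *Kyat3*, a kynurenine aminotransferase, measured 22.6, 22.9 and 20.4 CPM against 1.69, 2.56 and 2.21 CPM (-3.35 ± 0.23, adjusted p = 0.00017), and the tryptophan transporter subunit *Slc7a5* 653, 847 and 666 CPM against 149, 95.6 and 236 CPM (-2.17 ± 0.33, adjusted p = 0.0023). Pan02 carried *Il4i1*, an amino acid oxidase of myeloid cells, at 5.95, 27.1 and 20.3 CPM against 2.58, 2.70 and 2.52 CPM (2.77 ± 0.54, adjusted p = 0.0062), though 86% of its exon bases are shared with another gene. *Ahr*, the receptor for kynurenines, was also higher in Pan02, at 383, 175 and 107 CPM against 32.1, 19.9 and 21.6 CPM (3.18 ± 0.50, adjusted p = 0.0025). *Tdo2*, *Kmo*, *Kynu* and *Qprt*, downstream or alternative enzymes, were called higher in Pan02 with adjusted p from 0.024 to 0.047, and each lost its call without Pan02 tumor 3, MC38 tumor 1 or MC38 tumor 3 (adjusted p from 0.063 to 0.14). Other tumors also ended some of these calls, MC38 tumor 2 for *Tdo2*, *Kmo* and *Kynu*, Pan02 tumor 2 for *Kmo*, *Kynu* and *Qprt*, and Pan02 tumor 1 for *Qprt* (adjusted p from 0.077 to 0.085 for *Kmo* and *Kynu*, 1.81, adjusted p = 0.088 for *Tdo2* without MC38 tumor 2, and adjusted p from 0.066 to 0.073 for *Qprt*).

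Called macrophage genes varied in number with single tumors. Of 19 macrophage genes, 4 were higher in Pan02 (21.1%, against 17.2% of all tested genes) and 1 in MC38 (5.26%, against 12.5%). The count in Pan02 was 9 without Pan02 tumor 1 and 1 without Pan02 tumor 2 or any 1 of the MC38 tumors. *Adgre1*, encoding F4/80, measured 49.2, 175 and 171 CPM and 98.4, 76.3 and 125 CPM (0.40 ± 0.46, adjusted p = 0.50) and overlapped. *Apoe*, of lipid-handling macrophages and other cells, measured 3342, 6702 and 10846 CPM against 1827, 855 and 2294 CPM (2.07 ± 0.52, adjusted p = 0.016), and lost its call without MC38 tumor 1 (2.14, adjusted p = 0.051). Of 17 alternative activation genes, 8 were higher in Pan02 and 0 in MC38, with a median of 2.44, 13 without Pan02 tumor 1, 5 without Pan02 tumor 3 and 4 without MC38 tumor 2 or 3. *Chil3* may share reads with its near copy *Chil4*. Made by alternatively activated macrophages, *Chil3* measured 4.45, 26.0 and 2112 CPM against 4.48, 4.86 and 3.67 CPM (7.36 ± 2.31, adjusted p = 0.035). Pan02 tumor 3 was far above the others, and the call was lost without it (1.73, adjusted p = 0.086) and without any 1 of the MC38 tumors (7.37, adjusted p = 0.10 without tumor 1, 7.44, adjusted p = 0.10 without tumor 2 and 7.24, adjusted p = 0.100 without tumor 3). *Mgl2*, a lectin of these cells, measured 11.7, 119 and 338 CPM against 7.4996, 1.70 and 2.58 CPM (5.30 ± 1.26, adjusted p = 0.013), and *Cbr2* 79.8, 106 and 179 CPM against 29.3, 10.7 and 14.1 CPM (2.75 ± 0.47, adjusted p = 0.0036). *Il4ra*, the receptor of the inducing cytokines, was evenly higher, at 365, 514 and 588 CPM against 170.1, 78.0 and 141 CPM (1.91 ± 0.32, adjusted p = 0.0034).

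Chemokines were called at shares near those of all tested genes. Of 28 tested, 6 were higher in Pan02 (21.4%, against 17.2% of all tested genes) and 4 in MC38 (14.3%, against 12.5%), with 11 in Pan02 without Pan02 tumor 1 and 3 without Pan02 tumor 2. *Ccl2*, which recruits monocytes, measured 179.8, 209.6 and 189 CPM in MC38 and 7.06, 45.9 and 29.5 CPM in Pan02 tumors (log2 fold change -2.82 ± 0.60, adjusted p = 0.0088), and *Cxcl1*, for neutrophils, 50.5, 15.2 and 23.1 CPM against 1.35, 4.77 and 1.11 CPM (-3.64 ± 0.72, adjusted p = 0.0063). *Cxcl5*, also for neutrophils, was on the Pan02 side, at 73.3, 38.7 and 24.0 CPM against 5.16, 0.801 and 2.11 CPM (4.06 ± 0.73, adjusted p = 0.0043). *Ccl17*, a ligand of the T helper receptor CCR4, measured 1.64, 22.6 and 34.0 CPM against 0.292, 0.0501 and 0.204 CPM (6.69 ± 1.28, adjusted p = 0.0055). Pan02 tumor 1 was the lowest Pan02 tumor for *Ccl2* and *Ccl17* and the highest for *Cxcl5*.

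Among 11 tested neutrophil genes, 4 were higher in Pan02 (36.4%, against 17.2% of all tested genes) and 1 in MC38 (9.09%, against 12.5%). The first count was 2 without Pan02 tumor 2 or MC38 tumor 2 and 6 without Pan02 tumor 3, and the second was 0 without MC38 tumor 1 and 2 without MC38 tumor 2. *Cxcr2*, the neutrophil chemokine receptor, was low in both, at 8.51, 6.49 and 2.27 CPM against 1.56, 0.751 and 0.816 CPM (2.45 ± 0.57, adjusted p = 0.012), and *S100a8* overlapped (1.72 ± 0.68, adjusted p = 0.072). Of 16 dendritic cell genes, 3 were higher in Pan02 (18.75%, against 17.2% of all tested genes) and 1 in MC38 (6.25%, against 12.5%). The count in Pan02 was 8 without Pan02 tumor 1 and 1 without MC38 tumor 2. *Itgae*, CD103, measured 5.27, 16.7 and 4.79 CPM against 1.31, 1.502 and 1.77 CPM (2.54 ± 0.56, adjusted p = 0.0089). *Clec9a*, of cross-presenting dendritic cells, overlapped (-0.19 ± 0.70, adjusted p = 0.84). The 1 higher in MC38 was *Fscn1*, an actin bundler also found in tumor cells, at 801, 995 and 753 CPM against 188, 266 and 154 CPM (-2.07 ± 0.24, adjusted p = 0.00073). Among 10 monocyte genes, 1 was higher in Pan02 (10.0%, against 17.2% of all tested genes) and 0 in MC38 (against 12.5%). The 1 was *Ace* (1.97 ± 0.38, adjusted p = 0.0058). *Ly6c2* of classical monocytes measured 25.6, 56.0 and 34.3 CPM in MC38 and 1.79, 19.2 and 11.8 CPM in Pan02 (-1.83 ± 0.75, adjusted p = 0.081).

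Of 23 immunosuppressive ligands and enzymes, 6 were higher in Pan02 and 3 in MC38. *Cd274*, encoding PD-L1, measured 17.6, 75.1 and 43.7 CPM and 96.5, 53.7 and 80.9 CPM (-0.76 ± 0.50, adjusted p = 0.24) and overlapped. *Cd276*, encoding B7-H3, was higher in Pan02, at 226, 163 and 119.6 CPM against 45.5, 40.5 and 48.6 CPM (1.92 ± 0.24, adjusted p = 0.00098). In prostaglandin synthesis, *Ptgs1* was higher in Pan02, at 88.7, 134 and 195 CPM against 13.3, 7.91 and 10.5 CPM (3.72 ± 0.35, adjusted p = 0.00046), *Ptges* in MC38 (-1.34 ± 0.14, adjusted p = 0.00055), and *Ptgs2* overlapped (-0.29 ± 0.81, adjusted p = 0.78). *Nos2*, the inducible nitric oxide synthase, measured 162, 50.7 and 101 CPM in MC38 against 21.7, 29.9 and 39.2 CPM in Pan02 (-1.79 ± 0.44, adjusted p = 0.014) and lost its call without Pan02 tumor 2 (-1.79, adjusted p = 0.051). *Arg1*, arginase, ranged from 64.9 to 1316 CPM within Pan02 and measured 202, 17.1 and 50.9 CPM in MC38 (2.64 ± 1.25, adjusted p = 0.12). Of 14 complement genes, 6 were higher in Pan02 and 0 in MC38, 3 without Pan02 tumor 2, Pan02 tumor 3 or MC38 tumor 1. *C3*, the central component, measured 706, 3529.5 and 2995 CPM against 238, 104 and 236 CPM (3.64 ± 0.66, adjusted p = 0.0046).

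**Figure D4:**
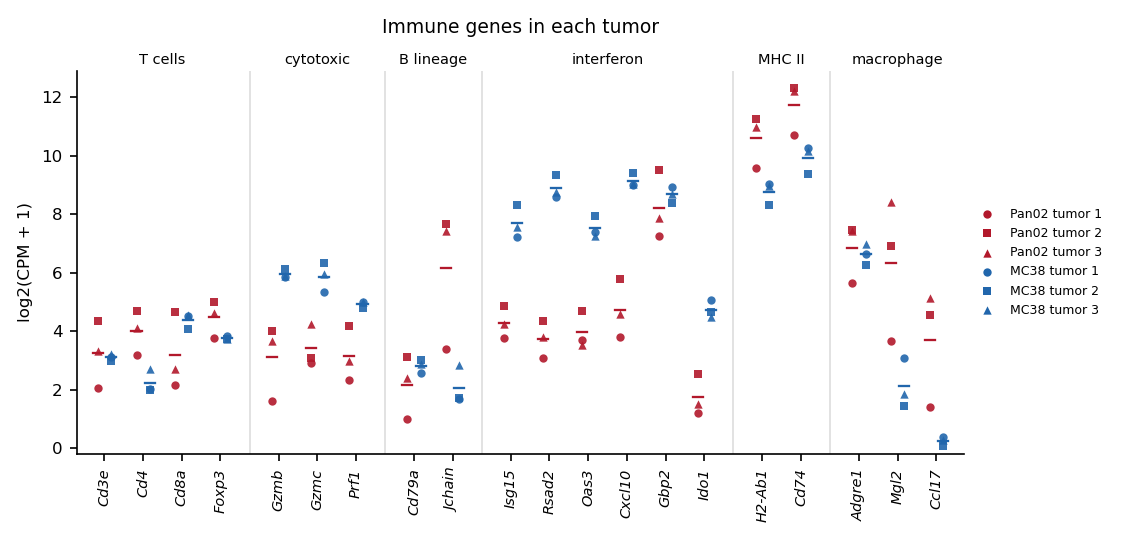
Log2(CPM + 1) of immune genes in each of the 3 Pan02 and 3 MC38 tumors (points), with the mean of each model as a short line. *Ido1*, *Cxcl10*, *Isg15* and *Gzmb* lie higher in MC38, *Cd3e* overlaps, and Pan02 tumor 1 is the lowest Pan02 tumor for most genes shown.

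Proliferation genes were higher in MC38. Of 22 cell cycle and replication genes, 18 were higher in MC38 and 0 in Pan02, with a median of -1.38. For 22 of 22 all MC38 tumors lay above all Pan02 tumors, against 30.2% of all tested genes. *Rrm2*, which supplies nucleotides for replication, measured 505, 459.9 and 368 CPM in MC38 and 129, 84.3 and 60.7 CPM in Pan02 tumors (log2 fold change -2.28 ± 0.29, adjusted p = 0.0012). *Mcm5*, of the replication helicase, measured 312, 367 and 291 CPM against 100.02, 84.95 and 64.9 CPM (-1.96 ± 0.19, adjusted p = 0.00045), and *Aurka*, a mitotic kinase, 122, 147 and 119.6 CPM against 37.7, 21.4 and 24.5 CPM (-2.22 ± 0.23, adjusted p = 0.00058). *Mki67*, the usual marker of cycling cells, passed the test below the size needed, at 257, 202 and 178 CPM against 143, 119 and 87.6 CPM (-0.87 ± 0.22, adjusted p = 0.016). Tumor 3 was the lowest of the Pan02 tumors for *Rrm2*, *Mcm5* and *Mki67*.

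**Figure D5:**
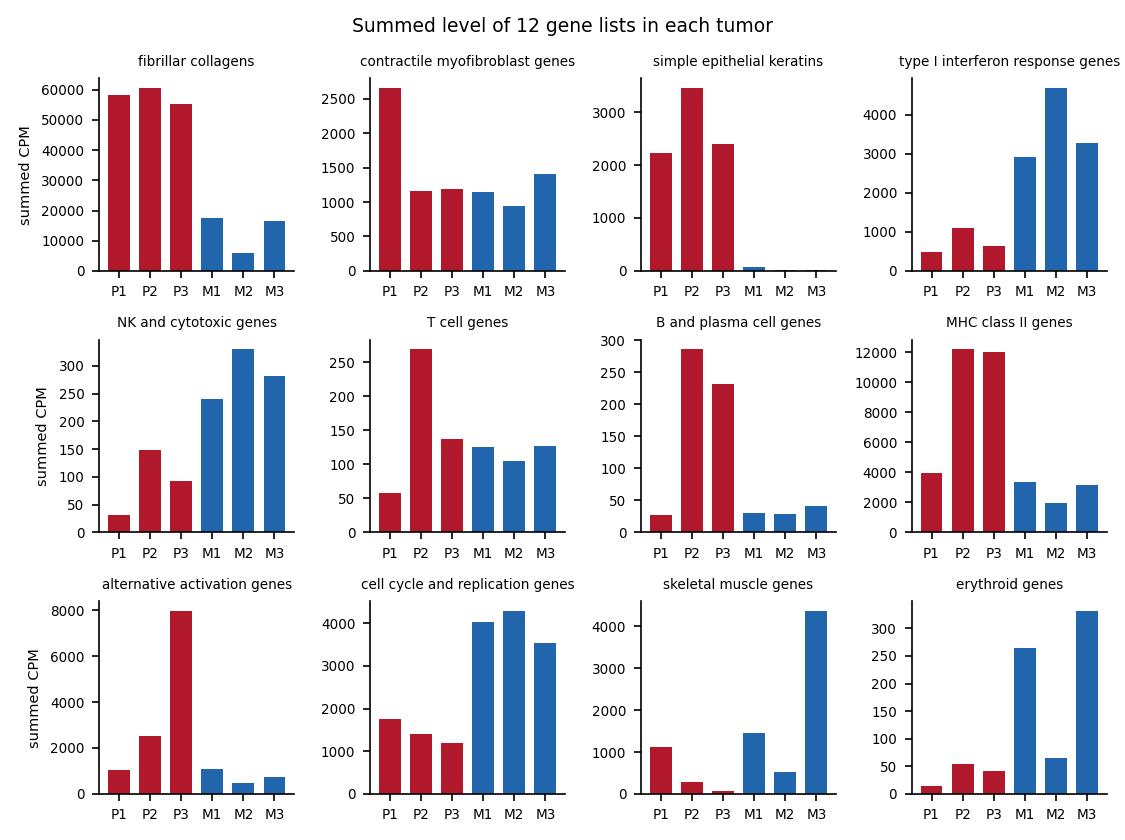
Summed CPM of whole gene lists, 1 bar for each of the 3 Pan02 tumors (P1 to P3) and 3 MC38 tumors (M1 to M3), with an axis from 0 for each list. Collagens run from 55204 to 60669 in Pan02 and from 6097 to 17476 in MC38, type I interferon genes from 487 to 1105 and from 2934 to 4701, and muscle genes from 60.1 to 1108 and from 515 to 4374.

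Genes were also ranked without lists, taking in each direction the 12 with the largest difference among called genes whose models did not overlap and whose mean was at least 10 CPM in the higher model. On the Pan02 side 1762 genes qualified, and on the MC38 side 1362. In Pan02 they were *Chil4*, *S100g*, *Ehf*, *Slurp1*, *Hmgcll1*, *Cldn2*, *Foxa2*, *Sox21*, *Igf2os*, *Krt18*, *Foxq1* and *Lrrc26*. *Cldn2*, a pore-forming claudin of leaky epithelia, measured 402, 311 and 209 CPM in Pan02 and 0.243, 0.451 and 0.272 CPM in MC38 tumors (log2 fold change 9.85 ± 0.40, adjusted p = 5.6e-05). *Ehf*, a regulator of glandular epithelium, measured 181, 101 and 28.2 CPM with 4 counts in all MC38 tumors together (adjusted p = 0.00061), and *Foxa2*, a regulator of gut and pancreas, 23.1, 20.9 and 14.5 CPM with 1 count (adjusted p = 0.00017). *S100g*, a calcium-binding protein, had no count in MC38 and 7.69, 18.9 and 9.15 CPM in Pan02, at least 71.3-fold higher (adjusted p = 0.00092). *Chil4* was the most uneven of the 12, at 78.5, 937 and 2442 CPM against 0.487, 0.551 and 0.748 CPM (10.93 ± 1.51, adjusted p = 0.0016), with Pan02 tumor 3 the highest, as for its near copy *Chil3*. In sorted CAFs *Cldn2* measured 64.5 and 84.2 RPKM in Pan02 and 0.0490 and 0.0350 RPKM in MC38, and *Ehf* 23.03 and 26.0 RPKM and 0 and 0.0490 RPKM.

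The 12 genes of MC38 were *Elavl2*, *Fam159b*, *Rps6ka6*, *Hoxd13*, *Xlr3c*, *Efcab6*, *Fmr1nb*, *Alx1*, *Tex13b*, *Pnma5*, *Efhc2* and *Afp*. *Fam159b* measured 122, 162 and 97.4 CPM against 0.0484, 0.138 and 0.184 CPM (-10.00 ± 0.39, adjusted p = 4.3e-05). *Hoxd13*, of the posterior body plan including the hindgut, measured 18.7, 23.6 and 16.9 CPM in MC38 with 1 count in all Pan02 tumors together (adjusted p = 0.00013). *Elavl2*, a neuronal RNA-binding protein, had no count in Pan02 and 16.2, 15.2 and 12.04 CPM in MC38, at least 80.9-fold higher (adjusted p = 0.00027). *Tex13b*, of the testis, measured 79.0, 92.4 and 68.8 CPM against 0.193, 0.138 and 0.123 CPM (-8.95 ± 0.25, adjusted p = 3.7e-05), and *Fmr1nb*, also of the testis, 42.3, 66.2 and 45.4 CPM against 0.0967, 0.0691 and 0.0614 CPM (-9.24 ± 0.34, adjusted p = 3.9e-05). *Afp*, α-fetoprotein of fetal liver and yolk sac, measured 25.6, 31.1 and 25.6 CPM against 0.0967, 0.0691 and 0.0614 CPM, where Pan02 held 3.5 counts in all (adjusted p = 3.7e-05). Values within MC38 were even for these genes, with no tumor apart. Of the 12, *Rps6ka6*, *Xlr3c*, *Fmr1nb*, *Tex13b*, *Pnma5* and *Efhc2* are on the X chromosome, as are *S100g* and *Cldn2* of the 12 in Pan02. The share of X-linked genes among all tested genes was not counted. In sorted CAFs *Fmr1nb* measured 0 and 0.0300 RPKM in Pan02 and 38.9 and 32.9 RPKM in MC38, and *Tex13b* 0 and 0.0790 RPKM and 34.6 and 54.7 RPKM, in the order of the tumors.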

How the data were processed

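RNA of 3 Pan02 and 3 MC38 tumors was analysed. The authors aligned reads to mm10 with STAR 2.5.0c and counted them with HOMER over exons of RefSeq transcripts on both strands, per the paper's methods, the submitters' processing notes and the labels. The tumor table that the authors deposited holds expected counts in steps of 0.5, not normalized, for 40458 transcripts, of which 2 name no gene and hold under 1.8e-05% of counts. Sorted CAFs were deposited as RPKM, which the authors divided by transcript length and library size. The 5 columns of other samples were not used.

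Every gene symbol stood for its most counted transcript, by the mean of the 6 tumors (24940 symbols, 69.4% with 1 transcript). Counts ending in 0.5 were rounded up, filtered with filterByExpr, scaled by TMM and tested with edgeR 4.0.16 (robust quasi-likelihood F test, Benjamini-Hochberg adjustment over 15034 genes, common dispersion 0.0826) with 1 term for the model. On simulated counts for this comparison (14888 genes, each with the common dispersion), recovery was judged by an adjusted p under 0.05 alone. There edgeR recovered 97 of 100 changes of 4-fold and 20 of 98 of 2-fold with 6 false calls. The alternatives were DESeq2 1.42.0, total-count scaling, other filters and transcripts, doubled counts, a fit on all 15 tumors, the replicate number as a block and each tumor left out. Members and gene lists were chosen with earlier results of these data known, and lists are described by counts and medians with no test. Named genes are list members and the 12 largest differences in each direction. Shared exon bases were counted in GENCODE vM21 and promoters read from RefSeq. Summaries ran in Python 3.11.15 (pandas 2.3.3, numpy 2.4.6), figures in matplotlib 3.10.9 and fits in R 4.3.3. Floors of 3 counts cover counting error only. Some listed genes are not reported here.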

Additional observations from a re-analysis of the deposited data

How the results depend on the processing

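None of the 4467 called genes was called in the opposite direction under any of 14 alternatives. Without the requirement on size, the adjusted p alone gave 7498 genes, 3963 higher in Pan02 and 3535 higher in MC38. Leaving out 1 tumor gave 3752 to 5067 genes, with genes called higher in Pan02 from 2120 to 2697, genes called higher in MC38 from 1632 to 2370, and 255 to 356 called list genes, against 304. The highest total came without Pan02 tumor 1 and the lowest without MC38 tumor 2. DESeq2 called 4645 genes and total-count scaling 4650, of which 2057 were higher in Pan02 and 2593 in MC38. With the replicate number as a block, 4045 genes were called, with genes called higher in Pan02 numbering 2241 and genes called higher in MC38 numbering 1804, and 267 list genes. Same-numbered tumors correlated at -0.12, -0.17 and -0.04 in their deviations from the group means, so the numbers were not treated as pairs. Of 701 named genes tested, 233 were called in every alternative, 237 in none, and the others in some. *Gbp4*, with a log2 fold change of 0.13, ran from -1.25 to 0.46 as single tumors were left out and turned to -1.25, adjusted p = 0.038 without Pan02 tumor 2. With 3 tumors a model, 2-fold differences were mostly not detected in simulated counts at this depth. The simulation gave every gene the common dispersion and changed far fewer genes than were called here. It therefore does not give the share of 2-fold differences found in these tumors.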

Other observations

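Glycolysis and hypoxia genes were mostly not called. Of 19, 4 were higher in Pan02 (21.1%, against 17.2% of all tested genes) and 1 in MC38 (5.26%, against 12.5%). The count in MC38 was 3 without Pan02 tumor 1. *Ndrg1*, a hypoxia- and stress-responsive gene, measured 1819, 708 and 641 CPM in Pan02 and 265, 182 and 250.2 CPM in MC38 tumors (log2 fold change 2.18 ± 0.44, adjusted p = 0.0066), with Pan02 tumor 1 the highest. *Vegfa*, the vessel growth factor, measured 328, 330.1 and 293 CPM against 186, 97.2 and 115 CPM (1.26 ± 0.25, adjusted p = 0.0058). *Slc16a3*, the lactate exporter, was the 1 gene higher in MC38, at 859, 960.0 and 789 CPM against 114, 119.8 and 162 CPM (-2.72 ± 0.19, adjusted p = 0.00017), and *Slc2a1*, the glucose importer, overlapped (-0.12 ± 0.27, adjusted p = 0.73).

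Of 21 tested tumor suppressors and drivers, 3 were higher in Pan02 (14.3%, against 17.2% of all tested genes) and 0 in MC38. The count in MC38 was 3 without Pan02 tumor 2. *Egfr*, a growth factor receptor, measured 185, 95.3 and 78.8 CPM against 14.999, 10.5 and 13.1 CPM (3.22 ± 0.36, adjusted p = 0.00078). *Myc* overlapped at 208, 142 and 139 CPM and 193, 168 and 209.6 CPM (-0.22 ± 0.19, adjusted p = 0.36).

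Adipocyte genes gave 0 calls with edgeR among 8 tested, of which 1, *Lipe*, had an adjusted p under 0.05 (0.022). With a tumor left out, 0 to 3 were called higher in Pan02, namely *Lipe*, *Adipoq* and *Cfd* without MC38 tumor 3, *Lipe* and *Lep* without Pan02 tumor 3, *Lipe* without Pan02 tumor 1 and *Lep* without MC38 tumor 2. Of 9 melanocyte and Schwann genes, 3 were higher in Pan02 (33.3%, against 17.2% of all tested genes) and 0 in MC38 (against 12.5%). The count in Pan02 was 1 without Pan02 tumor 2, Pan02 tumor 3 or MC38 tumor 1. *Sox10*, a regulator of both cell types, was called, but lost its call without Pan02 tumor 2, Pan02 tumor 3, MC38 tumor 1 or MC38 tumor 3 (adjusted p from 0.060 to 0.097). *Mbp*, of myelin, measured 41.1, 37.8 and 31.9 CPM against 8.72, 5.61 and 7.68 CPM (2.33 ± 0.21, adjusted p = 0.00037), and the pigment gene *Pmel* overlapped (0.22 ± 0.55, adjusted p = 0.75).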
